A study of Mus musculus with 56 samples.

Results

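Glutathione transferases of the alpha, theta, pi, zeta and kappa classes were described in mouse liver, across thyroid states and in mice with a mutant corepressor. The 10 genes were Gsta2, Gsta3 and Gsta4 (alpha class), Gstt1, Gstt2 and Gstt3 (theta class), Gstp1 and Gstp2 (pi class), Gstz1 (zeta class) and Gstk1 (kappa class), which are not all genes of these classes. They were chosen by name from the 23813 genes of the deposited RNA table, the first listed transcript standing for each gene, and all 10 were found and passed the filter on low values in both comparisons. Poly(A) RNA of the liver was sequenced from 3 groups of 4 male mice. All mice were fed for 16 days on chow low in iodine that contained 0.15% propylthiouracil (PTU), a drug that stops the thyroid from making hormone. The hypothyroid wild-type group (WT PTU) had that diet with vehicle injections. The hyperthyroid wild-type group (WT PTU+T3) also received injections of 5 µg triiodothyronine (T3) during the last 4 to 6 days. The third group, L-NCOR1ΔID on PTU, is called NCORdeltaID in the labels and received no T3. Its liver carries a shortened form of the corepressor NCOR1 without the domains that contact the thyroid hormone receptor, on a mixed C57BL/6;129S background, and the driver of the liver-specific change is not given in the sources used here. According to the animal table of the study, its WT mice were older on average than its L-NCOR1ΔID mice, and the mutant livers were heavier, so that age cannot be told apart from genotype here. Genotype, the strain mix and any difference between litters also came together in that comparison.

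Glutathione transferases couple the tripeptide glutathione to electrophiles, which makes drugs, plant toxins and products of lipid oxidation soluble and ready for export. The alpha, theta and pi enzymes work in the cytosol and differ in what they accept, the zeta enzyme is a step of tyrosine breakdown, and the kappa enzyme sits in mitochondria and peroxisomes. Several of the genes are known targets of the transcription factor NRF2 and of nuclear receptors such as CAR. T3 acts through nuclear receptors that bind DNA with or without hormone, and the receptor without hormone is known to recruit NCOR1 and the deacetylase HDAC3.

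The deposited values are RPKM, aligned reads scaled to transcript length and to the depth of the library, which can be compared between libraries. Between genes the comparison is limited where a transcript shares stretches with that of another gene. The steps between low values put the depth at 21300000 to 42600000 reads per library. The WT PTU+T3 libraries were the shallowest, at 21300000 to 26100000 reads, and the L-NCOR1ΔID libraries the deepest, at 38000000 to 42600000 reads. Over the 12 libraries the estimated reads behind a value numbered at least 27 for Gsta2 and 23 for Gstp2, and at least 473 for each of the other 8 genes. Thrsp, a gene known to respond to T3, was 322 ± 128 RPKM (SD, n = 4) in WT PTU and 1597 ± 652 in WT PTU+T3 livers. Ncor1 was 14.7 ± 0.665 RPKM in WT PTU and 13.0 ± 0.844 in L-NCOR1ΔID livers, but its transcript level is no check of a deletion inside the gene. All 6 hepatocyte markers were detected in every group, with sums of 22580 to 60433 RPKM per library.

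**Figure D1:**
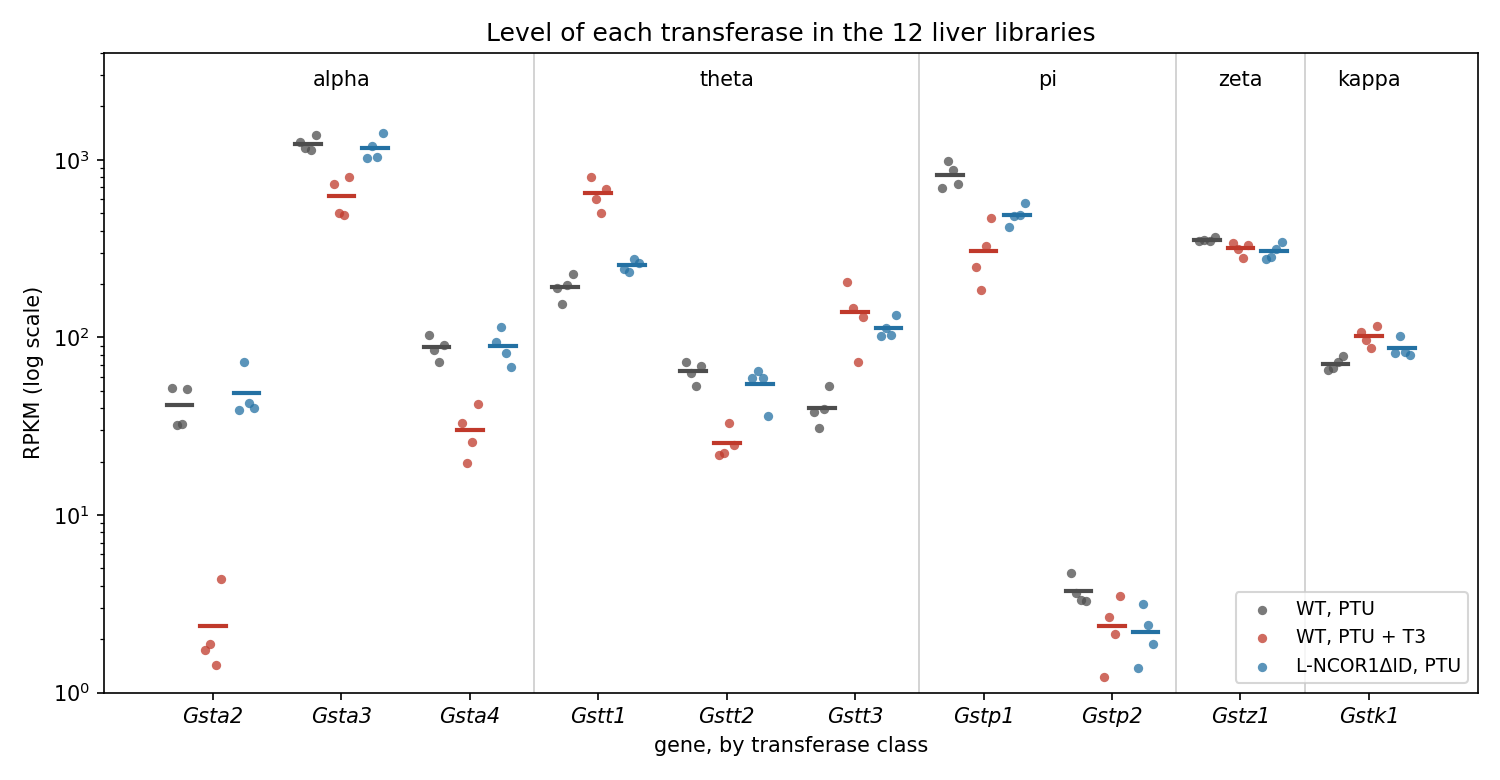
Level of each of the 10 transferases in RPKM on a log axis, by class, in the 4 WT PTU (grey), 4 WT PTU+T3 (red) and 4 L-NCOR1ΔID PTU (blue) libraries. Points are libraries and bars are group means. The WT PTU+T3 points lie apart from and below the WT PTU points for Gsta2, Gsta3, Gsta4, Gstt2, Gstp1 and, by a small gap, Gstz1, and above them for Gstt1, Gstt3 and Gstk1.

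The first comparison asked how T3 moved the transferases of the hypothyroid liver. Theta genes Gstt1 and Gstt3 rose by 3.36-fold and 3.28-fold, while the 3 alpha genes, Gstt2 and Gstp1 fell. The fall ran from 2.01-fold for Gsta3 to 18.3-fold for Gsta2. A gene was called when the limma adjusted p was below 0.01 and the log2 fold change passed 1 in either direction. By that rule 2 of the 10 genes were higher and 5 lower, against 8.28% and 3.47% of the 13941 genes tested. Counting every size of change at the same adjusted p, 3 were higher and 5 lower, against 24.5% and 7.71%. The groups did not overlap, higher, for 3 of the 10 genes and, lower, for 6, against 35.8% and 10.8% of all genes tested. The median log2 fold change was -0.85 over the 10 genes and 0.23 over all genes tested. Scaling the libraries by the median of gene ratios brought the median of all genes to 0.01 and shifted the split of all calls from 1155 higher and 484 lower to 747 and 682. Under that scaling the same 7 members were called, in the same directions.

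Marker genes of liver cell types also differed between these groups. The summed RPKM of the 6 Kupffer cell markers was 36.9 to 52.6 in the WT PTU and 123 to 205 in the WT PTU+T3 libraries, and all 6 genes were called higher. The sum of the 6 hepatocyte markers went from 45382 to 60433 RPKM down to 22580 to 32257, with Alb, Ttr and Apoa2 called lower and Apoa1, Tat and Cps1 not called. Of the other lists, 1 of 5 cholangiocyte, 1 of 5 endothelial, 1 of 5 stellate and 2 of 6 blood and lymphoid markers tested were called higher, with none called lower. The shares of all genes tested were 8.28% and 3.47%. At any size of change these lists held, in that order, 1, 2, 2 and 4 genes higher and 1, 0, 0 and 0 lower, against 24.5% and 7.71%. In bulk tissue, fewer cells of a type and less RNA per cell cannot be told apart. The part of these shifts in the transferase values was not tested.

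Among the alpha genes, which take up products of lipid oxidation and many drugs, Gsta2 showed the widest gap. It measured 51.7, 32.0, 32.4 and 51.1 RPKM in WT PTU replicates 1 to 4, and 1.74, 1.88, 1.44 and 4.38 RPKM in WT PTU+T3 replicates 1 to 4. The highest hyperthyroid library was thus far below the lowest hypothyroid one. The log2 fold change was -4.19 (SE 0.32, limma adjusted p = 2.4e-05), which ranked 190 by p among all genes tested. Gsta2 is the alpha transferase best known for induction through NRF2, and it lies on the minus strand of mouse chromosome 9, at chr9:78178825-78203595 of the mm9 build. Its promoter is shown because the gene changed most and because a close relative, Gsta1, changed with it. RefSeq gives, for 250 bases before and 50 after the start, a stretch (table build GRCm38.p6) that occurs once in mm9, at chr9:78194903-78195202 on the minus strand. The RefSeq start in this window lies 8643 bp downstream of the GENCODE gene start that is used for acetylated regions, inside the annotated gene.
Gsta2: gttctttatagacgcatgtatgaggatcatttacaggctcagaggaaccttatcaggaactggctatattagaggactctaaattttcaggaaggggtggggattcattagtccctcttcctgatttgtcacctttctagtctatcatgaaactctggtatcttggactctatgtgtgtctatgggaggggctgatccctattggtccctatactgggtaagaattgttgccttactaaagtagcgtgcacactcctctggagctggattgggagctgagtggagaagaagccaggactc

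This window held neither of the motifs searched on both strands, TGANTCAGC, a form of the antioxidant response element bound by NRF2 with a small Maf protein, and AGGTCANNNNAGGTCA, the direct repeat spaced by 4 bases to which thyroid hormone receptors bind. These motifs were chosen after the sequences were seen. They occur in 1.19% and 0.0152% of 32851 RefSeq promoters of that length. The Gsta1 promoter was identical to that of Gsta2 at 77.1% of 301 aligned columns. Coding transcripts of these relatives are so alike that 65.4% of the 50-base windows of Gsta2 also occur in a transcript of Gsta1, Gm10639, Gm3776 or Gm8074. The study states that it kept uniquely aligned reads, so that reads from such stretches may be missing from the levels of these genes. Gsta1 and Gm3776 were called lower too. Gsta1 went from 4.47 ± 2.60 to 0.121 ± 0.0621 RPKM, a log2 fold change of -4.23 with a limma adjusted p of 6.4e-05, and Gm3776, named here after its values were seen, from 1.88 ± 0.938 to 0.164 ± 0.0730 RPKM.

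Gsta3 had the highest RPKM of the 10 genes in WT PTU livers. Of its 50-base windows 0% were shared with another gene, against 67.5% for Gstp1, so that their order in abundance cannot be told. Known in mice for detoxifying aflatoxin, Gsta3 measured 1263, 1159.9, 1141 and 1375 RPKM without T3 and 729, 501, 487 and 796 RPKM with it. Hyperthyroid replicates 1 and 4 were the high pair and 2 and 3 the low pair, and no library reached the hypothyroid range. The log2 fold change of -1.01 (SE 0.18, limma adjusted p = 0.0016) only just passed the size required. Leaving out WT PTU replicate 1 or 4, or WT PTU+T3 replicate 2 or 3, moved it to between -0.99 and -0.89 and ended the call, with the adjusted p still at most 0.0065. Gsta4, the isoenzyme with the strongest preference for hydroxynonenal, measured 103, 85.4, 72.5 and 90.5 RPKM without T3 and 33.2, 19.7, 25.8 and 42.0 with it. Again replicates 1 and 4 were the higher hyperthyroid libraries, without overlap between groups (log2 fold change -1.58, SE 0.21, limma adjusted p = 4.0e-04). The alpha genes together summed to 1246 to 1517 RPKM per WT PTU library and 514 to 843 RPKM per WT PTU+T3 library.

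The theta genes, whose products handle small halogenated compounds and sulfate esters, split by direction. Gstt1 measured 189, 155, 197 and 227 RPKM in WT PTU and 802, 601, 501 and 688 RPKM in WT PTU+T3 libraries. Each hyperthyroid library was above every hypothyroid one by a wide margin (log2 fold change 1.75, SE 0.16, limma adjusted p = 5.7e-05). Gstt3, the neighbour of Gstt1, measured 38.1, 30.7, 39.4 and 53.0 RPKM without T3 and 204, 146, 73.1 and 131 RPKM with it. Its hyperthyroid libraries spread widely, with replicate 3 the lowest and replicate 1 the highest for both Gstt3 and Gstt1, yet none overlapped the hypothyroid group (log2 fold change 1.71, SE 0.29, limma adjusted p = 0.0013). Gstt2 measured 72.3, 63.4, 53.3 and 69.4 RPKM without T3 and 21.7, 22.4, 32.8 and 24.9 RPKM with it. It went the other way in all 4 hyperthyroid libraries, and replicate 3 was here the highest (log2 fold change -1.35, SE 0.14, limma adjusted p = 1.1e-04). As class sums, theta transcripts made 249 to 349 RPKM per WT PTU library and 607 to 1028 RPKM per WT PTU+T3 library.

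**Figure D2:**
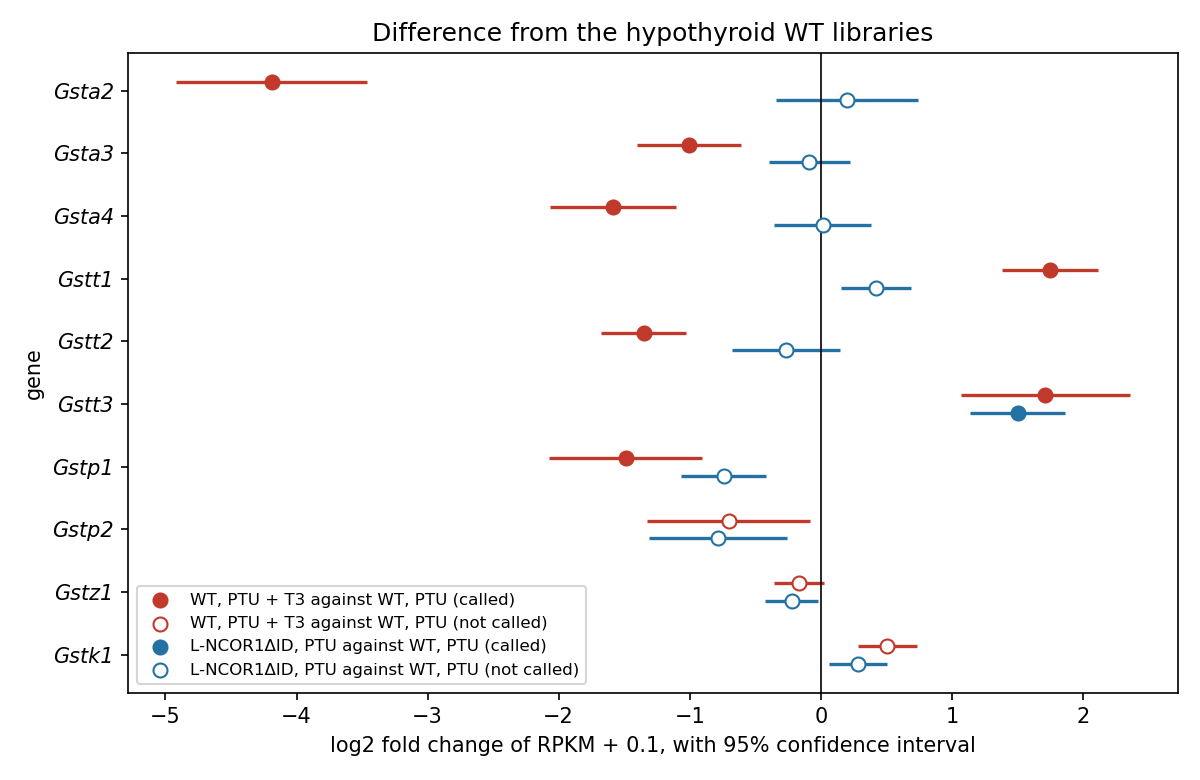
Log2 fold change of RPKM + 0.1 against the WT PTU libraries for the 10 genes, with T3 in red and L-NCOR1ΔID in blue, n = 4 per group. Lines are 95% confidence intervals, and filled circles mark genes called by the rule of that comparison. Gstt3 has a filled circle in both comparisons, and the alpha genes lie near 0 in L-NCOR1ΔID mice.

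These 3 genes lie on the minus strand of one stretch of chromosome 10, Gstt3 at chr10:75236860-75244159, Gstt1 at chr10:75246558-75261329 and Gstt2 at chr10:75294590-75297626 in mm9. Gstt1 ends 2398 bp before the Gstt3 start. The deposited list of regions with acetylated histone H3, merged over marks and thyroid states of WT mice, gives positions without values. In it a single region, chr10:75241038-75261947, held the start sites of both genes that rose. At 20910 bp it was longer than 98.9% of the 37200 regions, whose median was 2537 bp. The Gstt2 start lay in a region of its own, chr10:75290488-75301784, of 11297 bp. Between them, the start of Gstt4 lay in no region, and this gene was listed at 0 to 0.107 RPKM in the 12 libraries, below the filter.

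**Figure D3:**
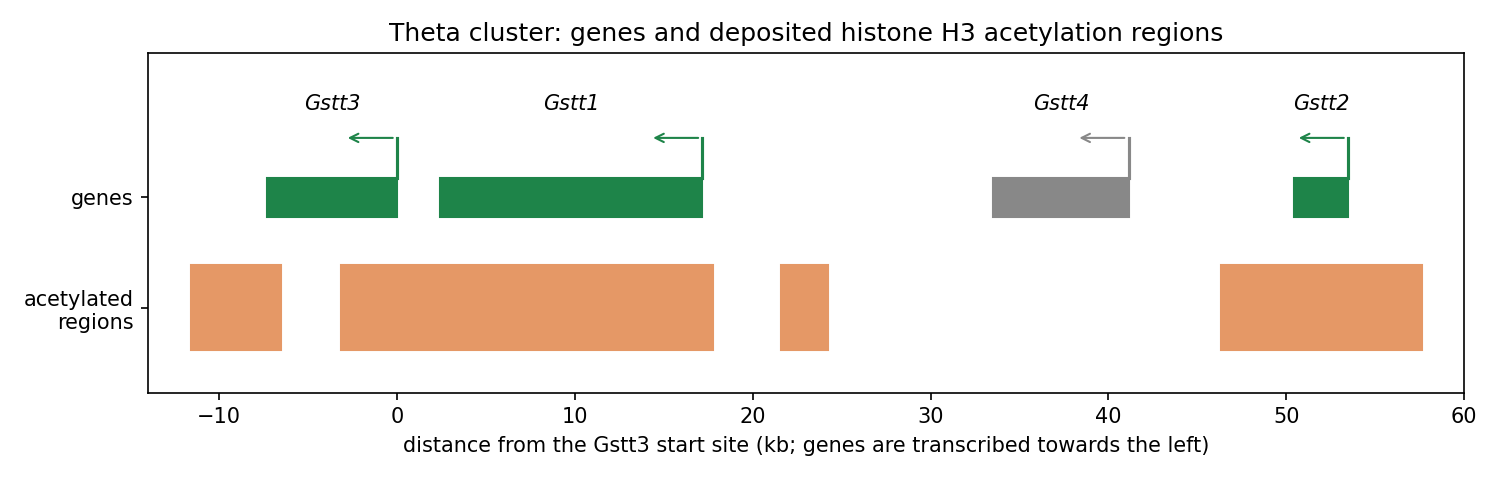
Map of the theta cluster by distance in kb from the Gstt3 start site, drawn to scale. Green boxes are members, the grey box is Gstt4, arrows show start sites and direction of transcription, and orange boxes are deposited acetylated regions. One region of 20910 bp covers the start sites of Gstt3 and Gstt1, and that of Gstt2 lies in another.

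Promoters of Gstt3 and Gstt1 are printed because both rose with T3 from within one region. They stand at chr10:75244118-75244417 and chr10:75260427-75260726 of mm9, on the minus strand, with RefSeq starts 8 bp upstream and 853 bp downstream of the GENCODE gene starts of Gstt3 and Gstt1. They hold none of the searched motifs, which says only that these letters are not in these windows.
Gstt3: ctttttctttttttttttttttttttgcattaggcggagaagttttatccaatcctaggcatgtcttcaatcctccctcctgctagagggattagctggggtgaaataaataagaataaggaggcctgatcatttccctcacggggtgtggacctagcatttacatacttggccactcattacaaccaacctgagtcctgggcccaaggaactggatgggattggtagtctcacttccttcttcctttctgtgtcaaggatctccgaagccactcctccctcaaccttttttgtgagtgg
Gstt1: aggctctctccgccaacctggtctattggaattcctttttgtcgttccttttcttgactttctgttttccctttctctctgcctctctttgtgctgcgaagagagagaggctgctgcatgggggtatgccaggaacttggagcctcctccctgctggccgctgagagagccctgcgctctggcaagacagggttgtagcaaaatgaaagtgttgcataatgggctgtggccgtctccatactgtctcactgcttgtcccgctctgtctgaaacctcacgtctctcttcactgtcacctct

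The alignment of these windows was identical at 51.5% of 303 columns, against 81.7% of 290 columns for the pi pair. No stretch of 50 bases of the Gstt1 or Gstt2 coding transcript occurred in a transcript of another gene. For Gstt3, 26.0% of windows also occur in RP23-333M15.8, another annotated coding gene model, so that reads from these windows cannot be divided between the pair.

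Gstp1 encodes the pi enzyme, which is abundant in the liver of male mice. It measured 692, 988, 876 and 736 RPKM in WT PTU and 250.1, 186, 325 and 469 RPKM in WT PTU+T3 libraries. The groups did not overlap, and replicate 4 was the highest of the hyperthyroid libraries (log2 fold change -1.49, SE 0.26, limma adjusted p = 0.0015). Its tandem copy Gstp2 was far less abundant, at 4.72, 3.63, 3.31 and 3.30 RPKM without T3 and 1.23, 2.67, 2.14 and 3.50 RPKM with it. Here hyperthyroid replicate 4 lay inside the hypothyroid range, and the difference did not pass the test (log2 fold change -0.70, 95% confidence interval -1.33 to -0.08, limma adjusted p = 0.060). It was -0.43 without WT PTU+T3 replicate 1 and -0.91 without replicate 4. Gstp1 exceeded Gstp2 by 147 to 272 times in WT PTU libraries and by 69.6 to 204 times in WT PTU+T3 libraries. Of the 50-base windows, 67.5% for Gstp1 and 67.9% for Gstp2 occur in the other transcript, so that with uniquely aligned reads both levels rest on the remaining stretches, and reads placed on the wrong copy were not tested for.

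The genes lie next to each other on the minus strand of chromosome 19, at chr19:4035411-4037921 and chr19:4040291-4042221, with 2369 bp between them. Their promoters, at chr19:4037863-4038162 and chr19:4042172-4042471, are shown because they share a motif that was not found in the other member promoters searched. The capitals mark TGAGTCAGC, a match to TGANTCAGC.
Gstp1: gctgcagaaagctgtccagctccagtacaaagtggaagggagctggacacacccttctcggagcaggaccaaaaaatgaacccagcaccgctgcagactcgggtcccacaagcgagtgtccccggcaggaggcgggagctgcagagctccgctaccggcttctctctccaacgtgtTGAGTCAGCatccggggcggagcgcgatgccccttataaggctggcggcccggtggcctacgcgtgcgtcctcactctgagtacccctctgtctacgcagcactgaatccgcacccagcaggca
Gstp2: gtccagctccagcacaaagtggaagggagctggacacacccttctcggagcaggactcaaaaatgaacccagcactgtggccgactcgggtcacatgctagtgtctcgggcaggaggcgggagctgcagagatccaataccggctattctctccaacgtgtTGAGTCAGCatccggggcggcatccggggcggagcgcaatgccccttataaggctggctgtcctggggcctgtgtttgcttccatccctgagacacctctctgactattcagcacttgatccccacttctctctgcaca

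The match lay from -74 to -66 relative to the start in Gstp1 and from -89 to -81 in Gstp2. Each start site was inside an acetylated region, of 7975 bp for Gstp1 and, for Gstp2, of 34952 bp, longer than 99.8% of all regions. The sequences do not say whether NRF2 was bound. Nfe2l2, which encodes it and was named after its values were seen, went from 30.4 ± 1.50 to 21.0 ± 1.61 RPKM with T3. The log2 fold change of -0.53 (limma adjusted p = 4.6e-04) stayed under the size required for a call. In L-NCOR1ΔID livers Nfe2l2 was 31.0 ± 4.58 RPKM and was not called (log2 fold change 0.02, limma adjusted p = 0.94). Whether its level bears on the pi genes was not tested.

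Gstz1, the maleylacetoacetate isomerase of tyrosine breakdown, measured 349, 354, 350.4 and 367 RPKM without T3 and 341, 314, 279 and 333 RPKM with it. All 4 hyperthyroid libraries were below all 4 hypothyroid ones, but by too little to pass the test (log2 fold change -0.17, 95% confidence interval -0.36 to 0.02, limma adjusted p = 0.126). Scaled by the median of gene ratios it was -0.41, with a limma adjusted p of 0.014. Gstk1, the transferase of mitochondria and peroxisomes, measured 66.0, 67.2, 72.6 and 78.2 RPKM without T3 and 107, 96.4, 87.2 and 115 RPKM with it. The groups did not overlap and the adjusted p was 0.0028 in limma, but the log2 fold change of 0.51 (SE 0.10) stayed under the size required for a call. With that scaling it was 0.27 with an adjusted p of 0.088.

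The make-up of the 10 transcripts differed between the groups. They summed to 2828 to 3051 RPKM in WT PTU and 1815 to 2607 RPKM in WT PTU+T3 libraries. Gstt1 made 5.27% to 7.43% of that sum without T3 and 26.4% to 32.2% with it, and Gstt3 went from 1.05% to 1.74% up to 4.03% to 8.20%. Over the same libraries the share of Gsta3 went from 39.5% to 45.1% down to 26.5% to 30.5%, and that of Gstp1 from 24.1% to 33.6% down to 9.83% to 18.0%. None of these 4 shares overlapped between WT PTU and WT PTU+T3 libraries. Levels of Gsta2, Gstp1 and Gstp2 may lack reads from stretches shared with near copies, so that the shares serve to compare groups rather than genes. In L-NCOR1ΔID libraries the sum was 2346 to 2956 RPKM, with 41.6% to 47.8% from Gsta3, 17.8% to 19.6% from Gstp1, 8.81% to 11.1% from Gstt1 and 4.14% to 4.55% from Gstt3.

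**Figure D4:**
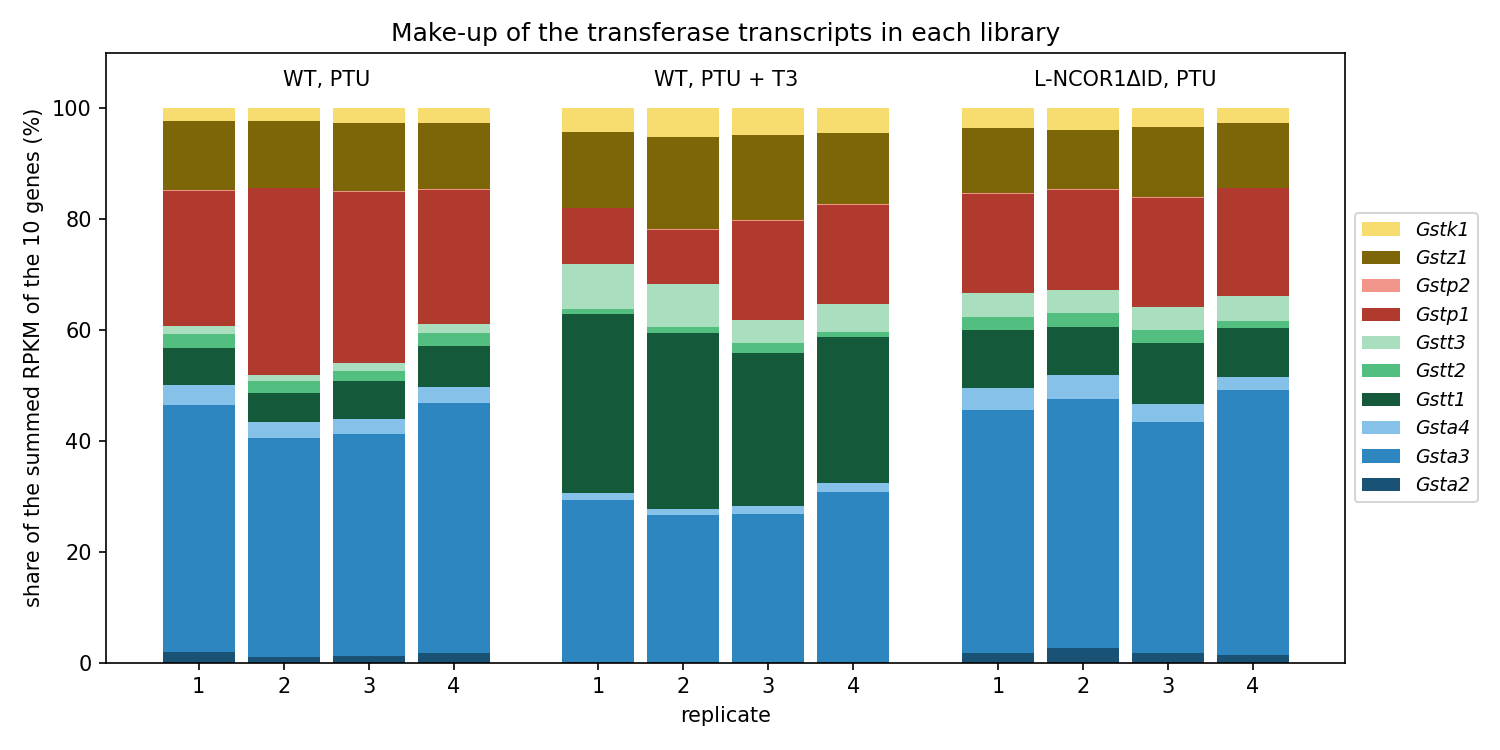
Share of the summed RPKM of the 10 genes taken by each gene, in percent, with a stacked bar per library and the groups side by side. In the WT PTU+T3 bars Gstt1 (dark green) takes 26.4% to 32.2%, against 5.27% to 7.43% in the WT PTU bars.

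The second comparison set the hypothyroid L-NCOR1ΔID livers against the same 4 WT PTU libraries, so that both comparisons share their controls. It asked what differed without hormone in livers with the shortened NCOR1. The study reports less HDAC3 in this mutant at some sites not bound by the receptor as well. It proposes that the missing domains may also serve other regulators, so that an effect through the receptor cannot be told apart here. The rule of the study was used here, an adjusted p below 0.01 with any size of change. Gstt3 was the 1 member called, higher by 2.84-fold, against 0.725% of 13790 genes tested that were called higher. It was also the 1 member past a log2 fold change of 1, against 0.537% of genes higher and 0.399% lower by that stricter rule. No member was called lower by limma, against 0.544%, while 3 members were higher and 3 lower at an unadjusted limma p below 0.05. That cut-off is a wide one, since Gstz1, at an unadjusted limma p of 0.032, ranked only 2285 by p among the 13790 genes tested. Groups that did not overlap were found, higher, for Gstt1, Gstt3 and Gstk1 and, lower, for Gstp1, Gstp2 and Gstz1, which is 3 of 10 genes each way against 7.78% and 5.36% of all genes tested. The median log2 fold change was -0.04 over the members and 0.03 over all genes tested.

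Gstt3 measured 102, 113, 103 and 135 RPKM in L-NCOR1ΔID replicates 1 to 4. All 4 were above the highest WT PTU value of 53.0 RPKM and inside the range of 73.1 to 204 RPKM of the WT PTU+T3 libraries. The log2 fold change against WT PTU was 1.50 (SE 0.16, 95% confidence interval 1.14 to 1.87, limma adjusted p = 0.0016), and it was called with each library left out in turn. Its neighbour Gstt1 measured 244, 235, 275 and 264 RPKM, each above the highest WT PTU value of 227 RPKM and below the lowest WT PTU+T3 value of 501 RPKM. That difference did not pass the test (log2 fold change 0.42, 95% confidence interval 0.15 to 0.69, limma adjusted p = 0.085). The ratio of Gstt1 to Gstt3 was 4.28 to 5.04 in WT PTU, 3.93 to 6.86 in WT PTU+T3 and 1.96 to 2.68 in L-NCOR1ΔID libraries. Gstt2, at 59.1, 64.6, 58.8 and 36.1 RPKM, had replicate 4 below the WT PTU range and the other libraries within it (log2 fold change -0.27, 95% confidence interval -0.67 to 0.14, limma adjusted p = 0.447). Without replicate 4 the log2 fold change was -0.078.

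Gstp1 measured 419, 482, 487 and 575 RPKM in L-NCOR1ΔID mice, all below the lowest WT PTU library at 692 RPKM. The log2 fold change was -0.74 (SE 0.14), and its limma adjusted p of 0.024 missed the threshold of 0.01. That p ran from 0.018 to 0.075 with single libraries left out, and was 0.097 with all 12 libraries in 1 fit and 0.066 with the replicate number as a block. Gstp2 measured 1.38, 3.17, 2.39 and 1.87 RPKM, each below the lowest WT PTU value of 3.30 RPKM, and did not pass the test (log2 fold change -0.78, limma adjusted p = 0.10). Kappa and zeta genes differed by less. Gstk1 measured 82.2, 102, 82.8 and 79.5 RPKM, a log2 fold change of 0.28 at a limma adjusted p of 0.142, and Gstz1 277, 285, 316 and 343 RPKM, a log2 fold change of -0.22 at a limma adjusted p of 0.196.

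The alpha genes, which fell with T3, overlapped with the WT PTU libraries in L-NCOR1ΔID mice. Gsta2 measured 38.9, 72.5, 43.0 and 39.9 RPKM, of which replicate 2 alone exceeded the WT PTU range (log2 fold change 0.20, 95% confidence interval -0.34 to 0.74). For Gsta3 the values were 1029, 1195, 1033 and 1414 RPKM (log2 fold change -0.09, 95% confidence interval -0.40 to 0.22). Gsta4 measured 94.2, 115, 81.4 and 68.4 RPKM (log2 fold change 0.02, 95% confidence interval -0.36 to 0.39), and its sign turned under 4 of the alternatives. No difference was detectable for these genes, and their intervals leave room for a change of up to 0.74 on the log2 scale. Of the 33 cell type markers tested none was called by limma in this comparison, against 0.725% of all genes tested called higher and 0.544% lower. At an unadjusted limma p below 0.05, 6 were higher and 1 lower. Many of all genes passed that cut-off, since Gstz1, at an unadjusted limma p of 0.032, ranked 2285 by p among 13790 genes. The Kupffer cell sum was 43.4 to 119 RPKM and the hepatocyte sum 38374 to 43048 RPKM in the L-NCOR1ΔID libraries, whose part in these values was not tested.

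All 10 GENCODE start sites lay inside an acetylated region, where 86.1% of 12215 tested genes with a position had one. The count was the same with start sites within 1 kb of a region, for which the share of all genes was 88.0%. Beside the clusters described, Gsta2 lay in a region of 13476 bp and Gsta3 in one of 19685 bp, at chr1:21228792-21248476. Regions of Gsta4, Gstz1 and Gstk1 were shorter, at 3687, 3677 and 2373 bp. Of the 10 members 8 matched a RefSeq promoter, each with a single exact place in mm9 and wholly inside an acetylated region, and for Gsta4 and Gstt2 there was no entry. The shorter motif AGGTCA, a half-site shared by many nuclear receptors and found in 16.3% of promoters, occurred among the members only in Gstk1, on the minus strand from -141 to -136.

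Over the 12 libraries and 10663 genes with a mean of at least 1 RPKM, the genes most like a called member were taken by Pearson r of log2 values. For Gsta2 they were Uox, the urate oxidase (r = 0.990), Abhd14b (0.986) and Bid (0.985). For Gstt1 they were Ppard (0.987), Stat5b (0.976) and Rnase2a (0.974), and for Gstt2 the gluconeogenic enzyme Fbp1 (0.982), Fam53b (0.979) and Ccdc57 (0.976). Gstt3 had looser companions, Stx7 and Uba7 at 0.939 and the folate enzyme Shmt1 at 0.932. These values share libraries and group differences and are a description only.

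Transferases of the mu, omega and microsomal classes, the remaining alpha, pi and theta genes, Hpgds and Gstcd were read as a list of 18, of which 15 were tested. With T3, 8 were called lower and 0 higher by limma, against 3.47% and 8.28% of all genes tested, with a median log2 fold change of -1.33. At an unadjusted limma p below 0.05, 11 were lower and 1 was higher. A large part of all genes passed that cut-off, since Gstp2, at an unadjusted limma p of 0.031, ranked 7204 by p among 13941 genes. Mgst1, which protects membranes, went from 3008 ± 52.9 to 1195 ± 103 RPKM (a log2 fold change of -1.34 at a limma adjusted p of 4.3e-05). Gstm1, the main mu enzyme, went from 2447 ± 371 to 384 ± 123 RPKM (-2.71, limma adjusted p = 2.8e-05). Gstm6, of the same class, fell by 2.26 on the log2 scale. In L-NCOR1ΔID mice, Gstm3 was 1031 ± 142 RPKM against 293 ± 32.5 in WT PTU (log2 fold change 1.81, limma adjusted p = 2.7e-04), and Gstm2 154 ± 4.10 against 70.7 ± 15.7 RPKM (1.15, limma adjusted p = 0.0037). These 2 were called higher there, against 0.725% of all genes tested, and lower with T3. The list had a median log2 fold change of 0.47 in L-NCOR1ΔID mice, with 0 genes called lower by limma, against 0.544%. At an unadjusted limma p below 0.05, 8 were higher and 0 lower, a cut-off near which Gstz1, at 0.032, ranked 2285 by p of 13790 genes.

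**Figure D5:**
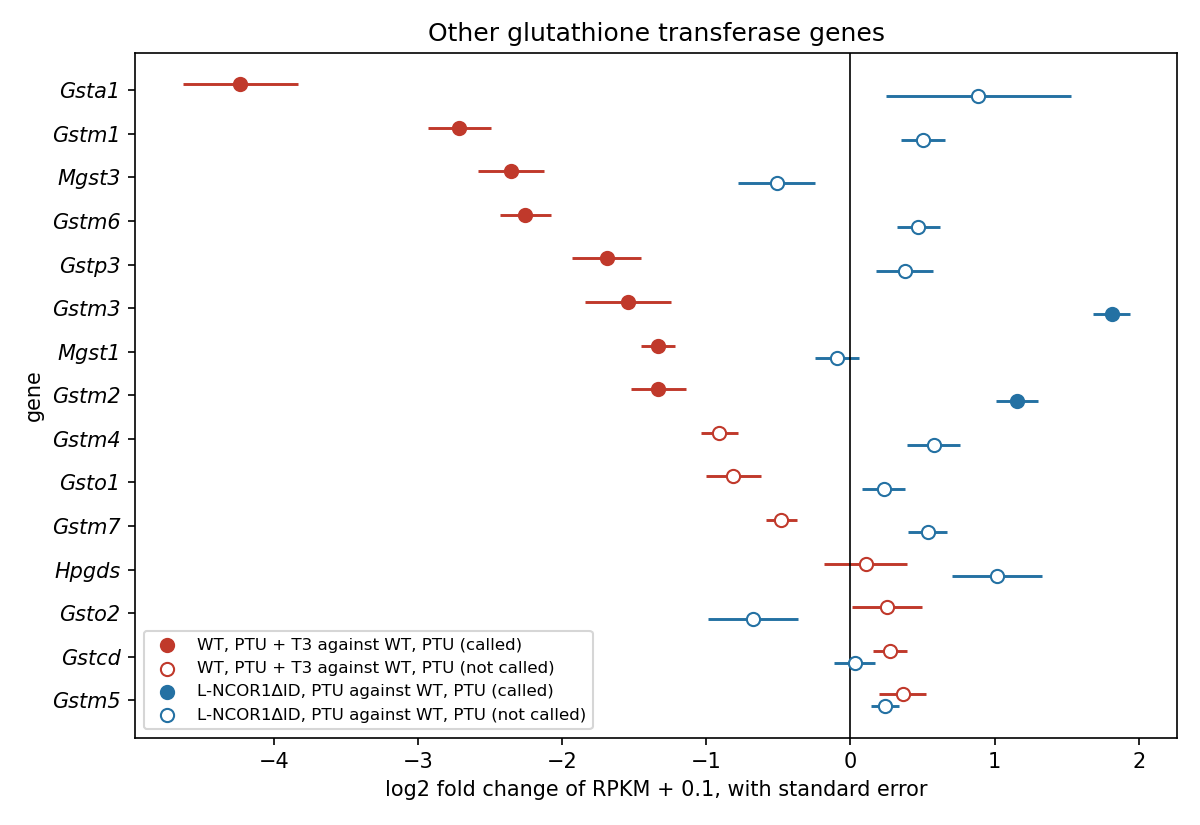
Log2 fold change of RPKM + 0.1 against WT PTU for the 15 tested transferase genes that are no members, with T3 in red and L-NCOR1ΔID in blue. Lines are standard errors, n = 4 per group, and filled circles are called genes. Gstm2 and Gstm3 lie below 0 with T3 and above 0 in L-NCOR1ΔID mice.

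The genes that work with the transferases were read as further lists. Their counts stand against shares of all genes tested of 8.28% called higher and 3.47% lower with T3. In L-NCOR1ΔID mice those shares were 0.725% and 0.544%. In glutathione synthesis and recycling, 1 of 10 tested genes was called higher and 0 lower by limma with T3. Counting every size of change at a limma adjusted p below 0.01, 2 were higher and 4 lower, against 24.5% and 7.71% of all genes tested. The gene called was Ggct, which splits gamma-glutamyl peptides, at 1.67 ± 0.110 RPKM without and 7.13 ± 1.08 RPKM with T3. Cbs, which feeds sulfur from methionine, was 130 ± 13.7 without and 147 ± 34.1 RPKM with T3 and was not called. Gclc, the subunit that sets the rate of synthesis and a gene named after its values were seen, was 96.2 ± 6.34 without and 61.4 ± 5.40 RPKM with T3 (a log2 fold change of -0.65 at a limma adjusted p of 3.2e-04), under the size required. Of 8 genes for export and mercapturate steps, Dpep1 and Abcc1 were called higher, both under 1 RPKM in each group on average, and 2 were called lower. The exporter Abcc3 went from 135 ± 24.6 to 4.43 ± 1.23 RPKM (a log2 fold change of -4.92 at a limma adjusted p of 2.4e-06), and Nat8, which acetylates cysteine conjugates, fell by 2.86 on that scale. Abcc2, the exporter into bile, was 127 ± 9.86 without and 108 ± 8.89 RPKM with T3 and was not called.

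Among 16 regulators, Nr1i3, which encodes CAR, was the 1 gene called with T3. It went from 173 ± 25.5 to 44.4 ± 8.81 RPKM (a log2 fold change of -1.97 at a limma adjusted p of 2.3e-05), and was 81.7 ± 6.06 RPKM in L-NCOR1ΔID mice (-1.07, limma adjusted p = 0.0014), the 1 regulator called there too. Hnf4a, a liver identity factor, was 182 ± 18.1 without and 243 ± 11.9 RPKM with T3 (a log2 fold change of 0.42 at a limma adjusted p of 0.0041), and Thrb, the main receptor of T3 in liver and named outside the rule, 7.57 ± 0.946 and 8.72 ± 0.793 RPKM, not called. Other NRF2 targets went both ways with T3, 3 of 8 higher and 2 lower. Nqo1 and the epoxide hydrolase Ephx1 fell by 1.68 and 1.63 on the log2 scale, while Hmox1, Cbr1 and G6pdx were higher by 2.01, 1.86 and 1.35. Akr7a5, an aldehyde reductase, was 94.2 ± 3.70 without and 52.6 ± 3.09 RPKM with T3, under the size required. In L-NCOR1ΔID mice 1 of 9 was called, G6pdx of the pentose phosphate pathway, at 3.85 ± 0.842 against 1.43 ± 0.120 RPKM.

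Of the 5 enzymes of tyrosine breakdown that surround Gstz1 in the pathway, Hpd was called lower with T3, from 1378 ± 143 to 683 ± 103 RPKM (a log2 fold change of -1.02 at a limma adjusted p of 4.5e-04). Tat, which starts the pathway, was 932 ± 51.7 without and 1176 ± 312 RPKM with T3 and was not called. In L-NCOR1ΔID mice 0 of 5 were called by limma, and 0 had an unadjusted p below 0.05. Of 9 peroxidases and aldehyde enzymes, Gpx1 (823 ± 131 to 1879 ± 165 RPKM) and Akr1b7 were called higher and Gpx6 lower with T3. Akr1b7 went from 0.129 ± 0.0378 to 0.691 ± 0.188 RPKM and Gpx6 from 0.510 ± 0.187 to 0.071 ± 0.0747 RPKM, values near the filter of 0.1 RPKM. Counting every size of change at a limma adjusted p below 0.01, 2 of the 9 were higher and 6 lower with T3, against 24.5% and 7.71% of all genes tested. In L-NCOR1ΔID mice Akr1b7 and Gpx6 were called higher, at 3.90 ± 2.19 and 12.3 ± 8.34 RPKM against 0.129 ± 0.0378 and 0.510 ± 0.187 in WT PTU. Abundant Aldh1a1, which oxidises retinal, was 1124 ± 94.9 RPKM in WT PTU, 698 ± 75.8 with T3 and 632 ± 166 in L-NCOR1ΔID mice, and was called in neither comparison. With T3 its log2 fold change of -0.69 (limma adjusted p = 0.0013) stayed under the size required. In L-NCOR1ΔID mice it was -0.87, and the limma adjusted p of 0.041 missed the threshold. Cth, which makes cysteine for glutathione, was the 1 of 10 synthesis genes called in L-NCOR1ΔID mice. It was 202 ± 41.7 against 88.6 ± 8.46 RPKM (a log2 fold change of 1.17 at a limma adjusted p of 0.0032). Of 8 export genes 0 were called by limma in those mice. At an unadjusted limma p below 0.05, 1 was higher and 2 lower, a cut-off near which Gstz1, at 0.032, ranked 2285 by p of 13790 genes.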

How the data were processed

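RNA-seq of 12 livers, 4 per group, was analysed. Per the labels and the study's methods, the authors aligned reads with STAR to mm9, kept those with a unique place and quantified with HOMER (versions not given in the sources used here). The deposited RPKM values were scaled by the authors to aligned reads. Transcripts without a gene name (1 of 31370, at most 0.000785% of summed RPKM) were left out, and 0 columns of per-sample values were unused. The deposited acetylated regions hold positions only, called and merged by the authors from pooled livers. The remaining ChIP-seq libraries were not analysed here.

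The unit did not permit the count test the study used, DESeq2, so limma 3.58.1 (R 4.3.3) was fitted to log2(RPKM + 0.1) with a variance trend, over genes of at least 0.1 RPKM in at least 4 of 8 libraries, for each comparison alone, with adjustment over all genes tested. Fold changes are on that scale, which understates low genes. The script was tested on simulated data. Depth was estimated from the steps between low RPKM values and GENCODE M1 transcript lengths. Gene positions and start sites came from GENCODE M1, which is on the build of mm9, and promoters from RefSeq (GRCm38.p6), placed in mm9 by exact match. Members, gene lists and tests were chosen with earlier results of these data known. Named genes were the members, from each list up to 4 called genes with the smallest adjusted p per comparison and the 2 highest in mean RPKM, and the 3 most correlated genes for up to 3 called members per comparison, not all of which are printed. Others are marked. Alternatives were pseudocounts of 1 and 0.01, other filters, all 12 libraries in 1 fit, a replicate block, no trend, another scaling, an adjusted p under 0.05, the other fold threshold, the highest transcript and each library left out. Python 3.11.15, pandas 2.3.3, numpy 2.4.6, Biopython 1.88 and matplotlib 3.10.9 were used.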

Additional observations from a re-analysis of the deposited data

Results flagged for a closer look

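Of 30 groups of 4 libraries, 10 genes in 3 groups, 3 held a library far from the others by Dixon's test, where chance gives about 1 in 20, or 1.5 here. Gsta2 was 4.38 RPKM in WT PTU+T3 replicate 4, against 1.88 RPKM in the next highest library. In L-NCOR1ΔID replicate 2 Gsta2 was 72.5 RPKM against 43.0 in the next, and Gstk1 was 102 RPKM against 82.8. Without WT PTU+T3 replicate 4 the log2 fold change of Gsta2 with T3 was -4.52, and without L-NCOR1ΔID replicate 2 that of Gstk1 in those mice was 0.20.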

How the results depend on the processing

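The count of members called with T3 was 7 under every alternative except the other fold threshold, which gave 8, and the removal of single libraries, which gave 6 to 7. In L-NCOR1ΔID mice the count was 1, also with each library left out (1 to 1), and 2 at an adjusted p under 0.05, where Gstp1 was added. The count of start sites in acetylated regions was 10 throughout. Signs turned in L-NCOR1ΔID mice for values close to 0. Gsta4 was -0.022 on the log2 scale with scaling by the median of gene ratios, and with single libraries left out it ran from -0.11 (without L-NCOR1ΔID replicate 2) to 0.14, turning also without WT PTU replicate 3 (-0.07) and without L-NCOR1ΔID replicate 1 (-0.02). With single libraries left out Gsta2 ran from -0.0059, without L-NCOR1ΔID replicate 2, to 0.32. The cause was not tested. Of the other single values, 185 with T3 and 184 in L-NCOR1ΔID mice kept direction and side of the threshold. The same-numbered libraries did not deviate together (r from -0.067 to 0.08 with T3 and from -0.145 to 0.175 in L-NCOR1ΔID mice), and the numbers were read as names only. With the replicate number as a block the counts of members were 7 and 1, while over all genes the L-NCOR1ΔID comparison went from 100 higher and 75 lower to 20 and 25. Over all genes, counts with T3 were 575 higher and 319 lower with a pseudocount of 1, 747 and 682 scaled by the median of gene ratios, and 3413 and 1075 at any size. In L-NCOR1ΔID mice they were 344 and 257 at an adjusted p under 0.05, 63 and 57 without a variance trend, 139 and 118 with all 12 libraries in 1 fit, and from 36 to 110 higher and from 28 to 77 lower with a library left out.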
